A study of Mus musculus with 6 samples.

Results

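The suppressors of cytokine signalling and their relatives were examined as 10 genes: Socs1 to Socs7, Cish, Pias1 and Pias3. They were picked by symbol as feedback inhibitors of cytokine receptors, and all 10 have a row among the 27507 genes of the table. RNA came from L929, a fibroblast line of mouse connective tissue. Of the 6 samples, 3 were labelled STING KO and 3 control, the control samples having the genotype WT, and no treatment is named. The sources used here do not say how the knockout was made or whether it is 1 clone. STING is an adaptor of the endoplasmic reticulum: when cGAS detects DNA in the cytosol, STING activates the kinase TBK1 and, through it, interferon and NF-kB responses.

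Cytokines such as interleukin-6 and the interferons bind receptors that carry JAK kinases, and these phosphorylate STAT transcription factors. STATs then switch on genes for their own inhibitors, among them Socs1, Socs2, Socs3 and Cish. Proteins of the SOCS family bind phosphorylated receptors or JAKs through an SH2 domain and recruit a ubiquitin ligase through the SOCS box. PIAS proteins are SUMO ligases that bind STATs and other transcription factors in the nucleus, and they are not known as typical cytokine-induced genes.

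The promoter windows of Socs3 and Cish are shown because these were the members whose windows held the letters TTCNNNGAA, the core of the GAS element that STAT dimers bind. The sequences are from RefSeq on GRCm38.p6, 250 bases before to 50 after an annotated transcript start, and capitals mark each match. The pattern is its own reverse complement, so both strands are covered. Windows were given for 6 of the 10 members. Across all 32851 windows of this length, 8.3% held at least 1 match and 0.457% held at least 2. In Cish, the matches begin at position 0, the start itself, and at position 11. In Socs3, the match begins at position -154, and its window lies inside the gene span of GENCODE M21, which extends to 117970047.
Socs3, chr11:117969317-117969616, minus strand: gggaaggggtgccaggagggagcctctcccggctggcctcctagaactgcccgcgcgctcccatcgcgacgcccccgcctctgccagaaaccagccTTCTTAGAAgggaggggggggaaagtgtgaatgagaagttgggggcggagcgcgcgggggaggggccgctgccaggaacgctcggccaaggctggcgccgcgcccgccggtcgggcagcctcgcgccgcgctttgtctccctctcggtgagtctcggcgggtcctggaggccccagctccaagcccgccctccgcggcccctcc
Cish, chr9:107296409-107296708, plus strand: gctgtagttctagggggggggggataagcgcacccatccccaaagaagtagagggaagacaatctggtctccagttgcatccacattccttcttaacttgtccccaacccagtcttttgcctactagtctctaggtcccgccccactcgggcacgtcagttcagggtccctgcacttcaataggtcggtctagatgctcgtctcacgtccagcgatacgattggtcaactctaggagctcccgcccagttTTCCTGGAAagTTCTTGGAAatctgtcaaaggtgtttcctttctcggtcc
No match was found in the windows of Socs1, Socs4, Pias1 and Pias3. A match is a description of the letters and does not show binding.

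Values are normalized counts, gene counts that the authors divided by a size factor per sample. Totals were 14382072 to 14526606 in the 6 libraries. RNA of the targeted gene, Sting1 (Tmem173 in the table), was at 82.1, 80.6 and 93.4 in STING KO and at 329, 313 and 311 in control, so 26.9% was left. Of 15 fibroblast markers 12 were tested and none was called. Col1a2, a collagen chain, was at 27583 to 29285 in STING KO and 26399 to 27394 in control, but Twist1 was at 0 or 1 and Dcn and Lum were near 0 in several libraries. The summed level of 16 hepatocyte markers stood apart in STING KO replicate 1 (5543) and control replicate 3 (5935), against 344 to 787 in the other libraries. Socs3, Socs2 and the called pathway genes other than Csf3 are also given without these libraries. Summed macrophage and leukocyte markers were at 1379 to 1567 in STING KO and 1353 to 1576 in control. Cd68 (670 to 860) and Cd74 (550 to 662) were the largest of them. Lyz2 was at 71.3 in STING KO replicate 1 and 97.4 in control replicate 3, and at most 22.1 elsewhere. Krt18 (36.6 and 39.7), Dcn (32.7 and 94.4) and Lum (11.9 and 31.8) were also highest in these libraries. Cd14 (46.5 and 19.9) did not follow. Both libraries thus stood apart in some markers outside the hepatocyte list. Markers of adipocyte, muscle, epithelial and endothelial cells summed to 7880.2 to 8915 in STING KO and 6935 to 7716 in control. Most of that sum was 1 gene, Fabp4, at 6677 to 7605 in STING KO and 5886 to 6517 in control. Adipoq and Plin1, other adipocyte markers, were at 0.990 to 3.01 and 9.93 to 15.1 over the 6 libraries, so the sum does not stand for adipocytes. Of the muscle markers, Des was at 629 to 702 in STING KO and 568 to 659 in control, but Myod1 at 0 to 2.01. Of the epithelial markers, Krt8 was at 477 to 547 in STING KO and 413 to 470 in control, but Epcam at 13.9 to 18.9. Neither Des nor Krt8 was called. The part of the markers in the results was not tested.

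None of the 10 members was called between STING KO and control, while 0.258% of the 12408 genes tested were. The test was limma on log2(normalized count + 0.1), with a call at a Benjamini-Hochberg adjusted p of 0.05 or less. By limma-voom and by the authors' deposited table, 0 members were called as well. At an unadjusted p of 0.05 or less, 2 members were lower (Socs3 and Socs4) and 0 higher; 3.18% of all genes tested were lower at that level. Socs3 and Socs6 were the 2 members whose groups did not overlap, both lower in STING KO, as 6.32% of all genes tested were. The fold changes were negative for 9 members and positive for Socs2 (Pias3 turned positive with upper-quartile scaling), against 50.8% negative among all genes. Their median log2 fold change was -0.06, and that of all genes was 0.00. In bulk RNA, a change in the number of expressing cells and a change in RNA per cell cannot be told apart.

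**Figure D1:**
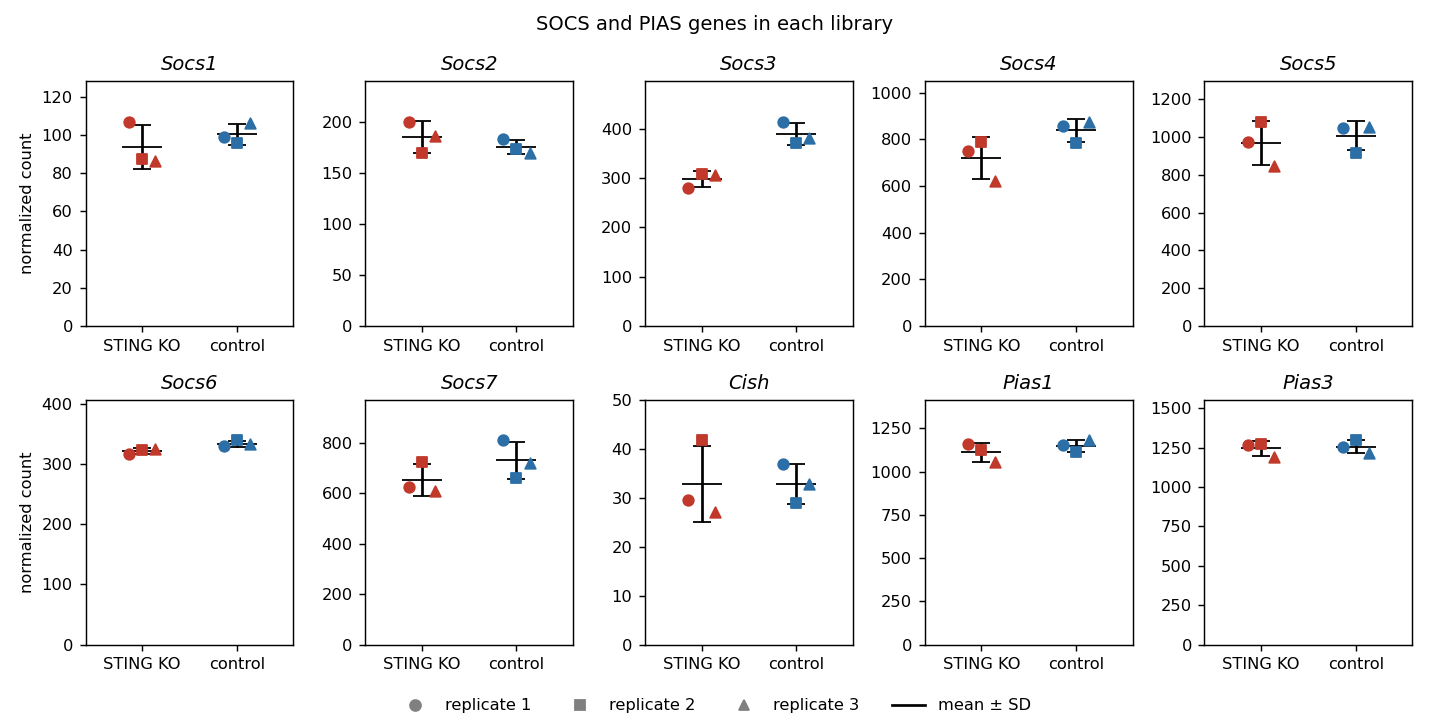
Normalized counts (y axes, each from 0) of the 10 members in the 3 STING KO and 3 control libraries, 1 point per library, with bars for mean ± SD. Socs3 is at 280.1 to 309 in STING KO and at 372 to 414 in control, whereas the points of most other members overlap.

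Socs3 encodes the inhibitor that blocks gp130 receptors and their JAKs after interleukin-6 type cytokines, and it had the lowest fold change of the 10. It was at 280.1, 309 and 306 normalized counts in STING KO libraries, against 414, 372 and 382 in control libraries. Each STING KO library thus lay below each control library. The means were 298 ± 15.8 in STING KO and 390 ± 22.01 in control (SD, n = 3 each), which leaves 76.6% of the control level. The log2 fold change was -0.38 (SE 0.08, 95% interval -0.56 to -0.21). The unadjusted limma p was 0.000597, which ranked 47 among the 12408 genes, and the adjusted p was 0.158. The authors' deposited table gives Socs3 a log2 fold change of -0.39 and an adjusted p of 0.329. Socs3 (ENSMUSG00000053113) is a protein-coding gene on the minus strand of chromosome 11, at 117966079 to 117970047 in GRCm38.

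The lower level of Socs3 did not rest on 1 library in size, but no alternative made it a call. With 1 library left out in turn, its log2 fold change ran from -0.42 to -0.34 and the adjusted p from 0.169 to 0.938. Without both libraries that hold hepatocyte transcripts, it was -0.35 (95% interval -0.61 to -0.10, adjusted p = 0.9998, limma). The remaining values were then 309 and 306 in STING KO, against 414 and 372 in control.

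Socs1 encodes the closest relative of SOCS3, an inhibitor of JAKs that is best known in interferon signalling. It was at 107, 87.6 and 86.4 normalized counts in STING KO and at 98.8, 95.8 and 106 in control. The highest of the 6 values, in STING KO replicate 1, and the lowest, in STING KO replicate 3, both came from knockout libraries. The log2 fold change was -0.10 (SE 0.12, 95% interval -0.38 to 0.17, limma adjusted p = 0.801). It was -0.20 without STING KO replicate 1 and -0.05 without STING KO replicate 3, the range over leaving out 1 library. Socs1 lies on chromosome 16 at 10782240 to 10785536, on the minus strand.

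Cish and Socs2, which are induced by STAT5 and restrain growth hormone, prolactin and interleukin-2 type receptors, showed no shift beyond their spread. Cish was at 29.7, 41.8 and 27.1 normalized counts in STING KO, against 36.9, 28.9 and 32.8 in control. The 3 values of STING KO enclosed those of control. The log2 fold change was -0.02 (SE 0.21), and with so few counts the 95% interval, from -0.50 to 0.46, was the widest of the 10. Cish (chromosome 9, 107296026 to 107302784, plus strand) shares 479 exon bases with the antisense gene Gm17041, and the strand setting of the counting is not given, so their reads may be mixed. Socs2 was at 199.9, 169 and 186 in STING KO, against 183, 174 and 169.9 in control. Its log2 fold change of 0.07 (SE 0.09, 95% interval -0.13 to 0.28) was the highest of the members. The Socs2 maximum came from STING KO replicate 1, a library with hepatocyte transcripts, and without both such libraries the log2 fold change was -0.01. Leaving out 1 library gave 0.02 (without STING KO replicate 1) to 0.14 (without STING KO replicate 2). Socs2 lies on chromosome 10 at 95385362 to 95417180.

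Socs4 and Socs5, relatives with long amino-terminal regions that have been linked to the EGF receptor, differed in how they stood. Socs4 was at 750.2, 791 and 621 normalized counts in STING KO, against 859.6, 783 and 875 in control. The groups overlapped through STING KO replicate 2 and control replicate 2. The means were 720.4 ± 88.8 and 839 ± 49.3 (SD, n = 3 each), with a log2 fold change of -0.23 (SE 0.09, 95% interval -0.43 to -0.02, limma adjusted p = 0.738). Without STING KO replicate 3 the log2 fold change was -0.12, with a 95% interval of -0.28 to 0.03. Socs5 was at 973, 1081 and 848 in STING KO, against 1047, 919 and 1056 in control, and its highest and lowest values were both in STING KO. Its log2 fold change was -0.06 (SE 0.09, 95% interval -0.27 to 0.15), and 0.03 without STING KO replicate 3. Socs4 is on chromosome 14 at 47276931 to 47296102 and Socs5 on chromosome 17 at 87107679 to 87137839, both on the plus strand.

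Socs6 and Socs7 form another pair of the family, linked mainly to insulin receptor and KIT signalling. Socs6 was at 317, 324 and 325 normalized counts in STING KO, against 329, 339 and 333 in control. The groups did not overlap, yet the gap between them was 4.11 normalized counts. The means were 322 ± 4.56 and 334 ± 4.93 (SD, n = 3 each), so 96.4% was left (log2 fold change -0.05, SE 0.07, limma adjusted p = 0.812). The coefficient of variation of Socs6 within groups was 1.42% in STING KO and 1.48% in control, smaller than the 5.47% that counting alone gives at that level. Socs7 was at 625, 723 and 609 in STING KO, against 809, 661 and 719 in control, with overlap. Its log2 fold change was -0.16 (SE 0.09, 95% interval -0.37 to 0.04), and it ran from -0.24 to -0.09 when 1 library was left out. Socs7 is on the plus strand of chromosome 11 (97362551 to 97398542), and Socs6 on the minus strand of chromosome 18 (88665224 to 88927481).

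The PIAS genes had the narrowest intervals of the 10. Pias1, which encodes a SUMO ligase of the nucleus, was at 1161, 1123 and 1053 normalized counts in STING KO, against 1156, 1112 and 1181 in control. Its log2 fold change was -0.05 (SE 0.06, 95% interval -0.18 to 0.08), and -0.01 without STING KO replicate 3. Pias3, named for its binding of STAT3, was at 1269, 1275 and 1189.96 in STING KO, against 1256, 1296 and 1214 in control. Its groups overlapped almost fully, at a log2 fold change of -0.01 (SE 0.06, 95% interval -0.14 to 0.11). Pias1 is on chromosome 9 (62878368 to 62987924) and Pias3 on chromosome 3 (96696384 to 96706070), where it shares 4 exon bases with Nudt17.

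The intervals, per gene and unadjusted, describe the difference between these libraries only. They rest on sample-to-sample spread that may be technical. For all 10 members the 95% limma interval of the main fit lay within 1.5-fold in both directions, as it did for 85.4% of all genes tested. For Socs3 the interval ran from 0.680 to 0.862 of control, and for Cish from 0.706 to 1.38. For Pias3 it ran from 0.910 to 1.08. Some alternatives passed 1.5-fold. In log2, the interval of Socs3 was -0.61 to -0.16 with the replicate block, and that of Cish -0.70 to 0.29 without STING KO replicate 2.

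**Figure D2:**
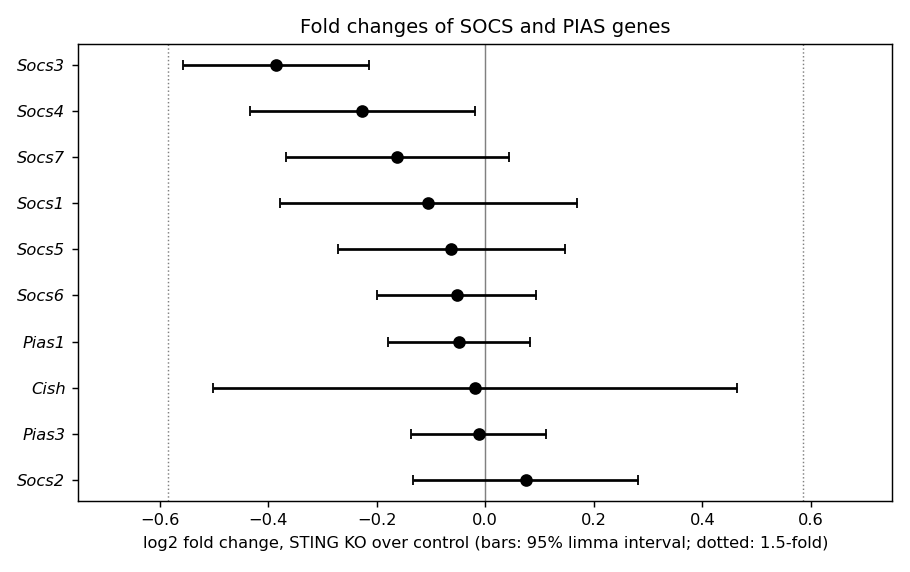
Log2 fold changes of STING KO over control (x axis) for the 10 members, ordered by size, with 95% limma intervals and dotted lines at 1.5-fold. The intervals of Socs3 (-0.56 to -0.21) and Socs4 (-0.43 to -0.02) lie below 0, and no interval reaches a dotted line.

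Most members were at their lowest in STING KO replicate 3. Each of the 10 had its lowest value in a STING KO library, which 53.5% of all genes tested had. For 7 members (Socs1, Socs4, Socs5, Socs7, Cish, Pias1 and Pias3) that was replicate 3, where 29.9% of all genes had their minimum. This library stood at 0.59 on the first principal component of all genes tested, which holds 40.3% of the variance. The other STING KO libraries were at -0.34 and 0.00, and the control libraries at -0.07, 0.42 and -0.60. The lowest on it, STING KO replicate 1 and control replicate 3, had the highest hepatocyte marker sums (5543 and 5935). The highest on it, STING KO replicate 3 and control replicate 2, had the lowest sums (374 and 344). The part of this component in the members' values was not tested. Socs3 (lowest in STING KO replicate 1), Socs6 (likewise) and Socs2 (lowest in STING KO replicate 2) did not follow replicate 3.

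**Figure D3:**
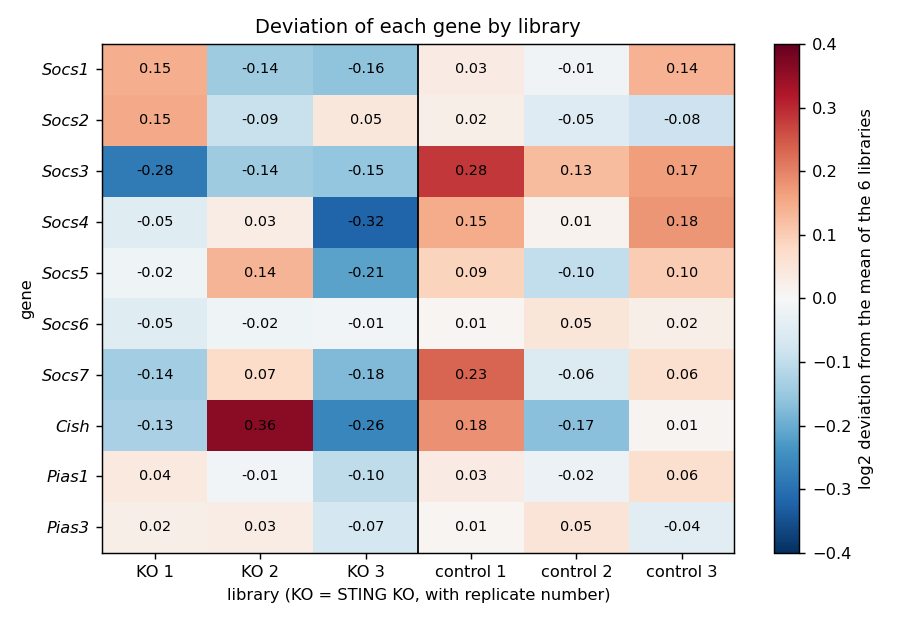
Log2 deviation of each member (rows) in each library (columns, STING KO left of control) from its mean over the 6 libraries. Socs3 is below 0 in the 3 STING KO libraries and above 0 in the 3 control libraries; Socs4 is lowest in STING KO replicate 3, at -0.32, and Cish is highest in STING KO replicate 2, at 0.36.

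Within a library, Socs3 was set against each other member, a comparison chosen after its values were seen and given without a test. The log2 ratio of Socs3 to Socs2 was 0.49, 0.87 and 0.72 in STING KO, against 1.181, 1.0996 and 1.1704 in control. The ratio of Socs3 to Socs1 was 1.39, 1.82 and 1.83 in STING KO, against 2.07, 1.96 and 1.85 in control. Of the 9 ratios, 7 did not overlap between the groups, and those to Socs4 and Cish did. All 9 hold the same Socs3 values, whose groups did not overlap, so the count is no repeated observation. The share of such ratios over all genes was not computed. The difference of the group means ran from -0.46 for the ratio to Socs2 to -0.16 for the ratio to Socs4.

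Per kilobase of the longest coding transcript in GENCODE M21, Pias3 was the most abundant member and Cish the least. Pias3 was at 425 ± 16.2 normalized counts per kb in STING KO and 428 ± 13.96 in control, and Cish at 11.5 ± 2.75 in STING KO and 11.5 ± 1.41 in control (SD, n = 3 each). In STING KO the order below Pias3 was Socs5 (208 ± 25.2 per kb), Pias1 (199.9 ± 9.81), Socs3 (117 ± 6.21), Socs4 (105 ± 12.9), Socs7 (92.9 ± 8.82), Socs2 (83.3 ± 6.91), Socs6 (53.3 ± 0.755) and Socs1 (32.2 ± 3.96; SD, n = 3 each). The library values of Socs5 and Pias1 overlapped there, as did those of each neighbour from Socs3 through Socs4 and Socs7 to Socs2. The order of the means was the same in control, where Socs3 was at 153 ± 8.63 per kb, Socs4 at 122 ± 7.17, Socs7 at 104 ± 10.6 and Socs2 at 78.9 ± 2.97 (SD, n = 3 each). In control only Socs5 with Pias1 and Socs4 with Socs7 overlapped among neighbours. Socs3 thus overlapped with Socs4 in STING KO (109.8 to 121 and 90.2 to 115 per kb) and not in control (146 to 162 and 114 to 127 per kb). Which transcripts the cells use was not measured, so the order depends on the lengths taken.

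**Figure D4:**
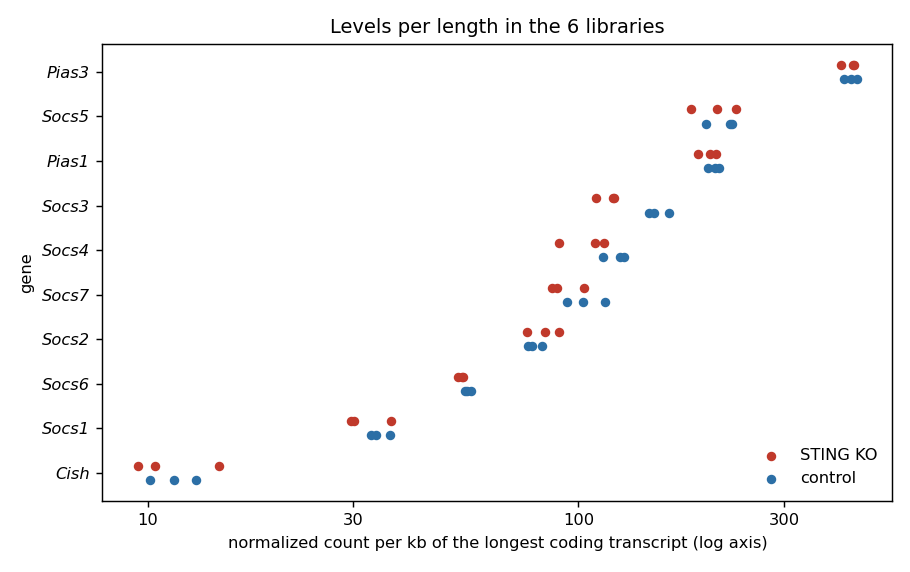
Normalized counts per kb of the longest coding transcript (x axis, log scale) for the 10 members, 1 point per library, STING KO above control. Pias3 lies near 425 and Cish near 11.5 in both groups, and the points of Socs3 lie at 109.8 to 121 in STING KO and 146 to 162 in control.

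Upstream of Socs3, Il6, Lif and the receptor gene Osmr of the interleukin-6 family were called lower in STING KO. Other genes of that family were not called. The log2 fold changes were -0.33 for Osm, 0.06 for Ctf1 and 0.08 for Il11. Among receptors they were -0.05 for Il6ra, -0.03 for Lifr and 0.02 for Il11ra1. The remaining receptors and the kinases were not called either. These pathway lists were chosen with earlier results of these samples known, so the direction of their called members is no independent evidence. Among JAK-STAT ligands, 10 of 21 were abundant enough to test. Of these, 3 were called lower and 0 higher, at a median log2 fold change of -0.07. Over all genes tested 0.258% were called, all lower, which is the share to set beside this list and those below. Il6, the ligand whose receptor SOCS3 restrains, was at 12.9, 10.95 and 11.05 normalized counts in STING KO, against 62.9, 51.9 and 57.6 in control (log2 fold change -2.30, SE 0.20, limma adjusted p = 0.000873). Lif, another gp130 ligand, was at 81.2, 85.6 and 82.3 in STING KO, against 124, 147 and 161 in control (-0.78, SE 0.12, limma adjusted p = 0.0359). Csf3, which encodes G-CSF, was at 0.990, 0.996 and 1.004 in STING KO, against 25.0, 20.9 and 21.9 in control. It met the minimum for the test only through its control libraries, so it could only be called lower. The interferon gene Ifnb1 was listed at 0 in all 6 libraries.

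Of 26 receptor chains 17 were tested, 1 was called lower and 0 higher (median log2 fold change -0.05). The called chain was Osmr, the oncostatin M receptor, at 770.03, 864 and 772 normalized counts in STING KO, against 1230.01, 1219 and 1269.6 in control (log2 fold change -0.63, SE 0.06, limma adjusted p = 0.0019). Il6st, which encodes gp130 itself, was at 3109, 3318 and 2666 in STING KO, against 3908, 3412 and 3881 in control, with no overlap and no call (-0.30, SE 0.08, limma adjusted p = 0.549).

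Of the 11 JAK and STAT genes 10 were tested and 0 were called, at a median log2 fold change of -0.05. Stat3, the factor that induces Socs3 after interleukin-6, came nearest. It was at 1991, 2071 and 1886 normalized counts in STING KO, against 2534, 2398 and 2527 in control, with no overlap. Its log2 fold change was -0.33 (SE 0.05, limma adjusted p = 0.0554), and the authors' deposited table has it past the threshold (adjusted p = 0.000705). Stat5a, a factor upstream of Cish and Socs2, was at 1240.2, 1144 and 1135 in STING KO, against 1265, 1258 and 1272 in control, with no overlap and no call (-0.11, SE 0.06, limma adjusted p = 0.738).

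Among other genes known to be induced by STATs, Cebpd, Junb and Osmr fell in STING KO. Of 20 STAT3-linked genes 18 were tested and 3 were called lower, against 0 of 12 tested STAT5-linked genes. In each list 0 were called higher. Over all genes tested 0.258% were called, so a list of 12 with no call is no contrast. The lists share genes, Pim1 among them, and the difference between the lists was not tested. Their medians of the log2 fold change were -0.14 and -0.05, beside 0.00 over all genes. Cebpd, a C/EBP transcription factor, was at 434, 481 and 442 normalized counts in STING KO, against 869.6, 809 and 803 in control (log2 fold change -0.87, SE 0.07, limma adjusted p = 0.000429). Junb, an AP-1 subunit, was at 606, 583 and 556 in STING KO, against 913, 915 and 926 in control (-0.66, SE 0.06, limma adjusted p = 0.001). The third of the STAT3-linked genes was Osmr. These genes are also known to respond to other pathways, NF-kB among them.

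In the STAT5 list, the kinase gene Pim1 was at 112, 86.6 and 98.4 normalized counts in STING KO, against 119.8, 122 and 128 in control, with no overlap and no call (log2 fold change -0.32, SE 0.12, limma adjusted p = 0.738). Gadd45g, a stress-response gene, was at 370.2, 337 and 417 in STING KO, against 301, 385 and 303 in control (0.19, SE 0.11, limma adjusted p = 0.738), and its log2 fold change ran from 0.11 without STING KO replicate 3 to 0.31 without control replicate 2. Lif lost its call without STING KO replicate 1 (limma adjusted p = 0.221), STING KO replicate 2 (0.0976), control replicate 2 (0.124) or control replicate 3 (0.207). It also lost it with the replicate block (0.17), with limma-voom (0.0618) and with no filter on low values (0.1002). Csf3 was under the minimum for the test when a control library was left out.

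Without both libraries that hold hepatocyte transcripts, Osmr (adjusted p = 0.139), Junb (0.0534) and Lif (0.811) were not called by limma. Their log2 fold changes were then -0.58, -0.68 and -0.68. Il6 (-2.37, limma adjusted p = 0.0179) and Cebpd (-0.86, limma adjusted p = 0.0221) were called there too. Csf3 was under the minimum for the test.

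**Figure D5:**
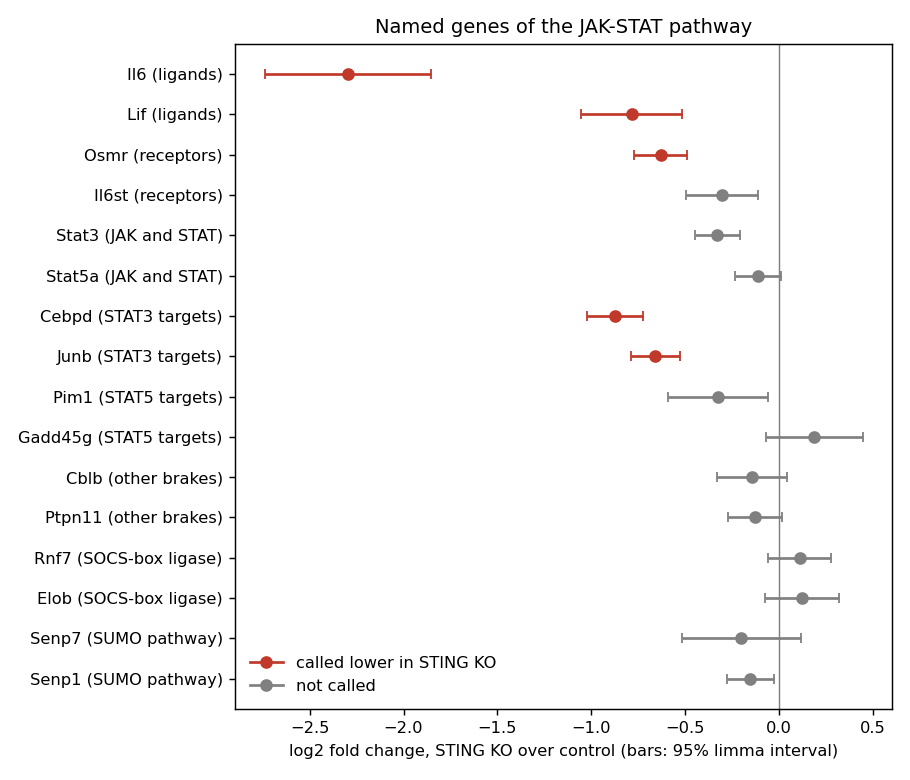
Log2 fold changes of STING KO over control (x axis) with 95% limma intervals for the named pathway genes, grouped by role; red marks genes called lower, grey those not called. Csf3 is left out because its STING KO libraries hold about 1 count each. Il6 is lowest at -2.30, and Stat3 (-0.33) and Il6st (-0.30) lie below 0 without a call.

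The machinery with which the inhibitors act was not called. Of the SOCS-box ligase partners, all 9 were tested and 0 were called, at a median log2 fold change of 0.05. Elob, an elongin of the SOCS-box ligase, was at 2717, 2628 and 3134 normalized counts in STING KO, against 2485, 2923 and 2381 in control (0.12, SE 0.09, limma adjusted p = 0.742). Rnf7, the RING subunit used with cullin 5, was at 807, 771 and 906 in STING KO, against 743, 813 and 739 in control (0.11, SE 0.07, limma adjusted p = 0.741). With 1 library left out, the log2 fold change of Elob ran from 0.047 (without STING KO replicate 3) to 0.21 (without control replicate 2), and that of Rnf7 from 0.045 (without STING KO replicate 3) to 0.16 (without STING KO replicate 2). Of the 14 SUMO pathway genes, 0 were called (median -0.03). Senp1, a SUMO protease, was at 957, 977 and 933 in STING KO, against 1041, 1035 and 1109 in control, with no overlap and no call (-0.15, SE 0.06, limma adjusted p = 0.738). Senp7, another SUMO protease, was at 265, 308 and 228 in STING KO, against 309, 254 and 358 in control, with overlap (-0.20, SE 0.14). Its log2 fold change ran from -0.33 without control replicate 2 to -0.08 without control replicate 3.

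Of the 10 other brakes on the pathway 8 were tested and 0 were called (median log2 fold change -0.08). Ptpn11, the phosphatase SHP2, was at 3754, 3841 and 3312 normalized counts in STING KO, against 4064, 3776 and 4044 in control (-0.13, SE 0.06, limma adjusted p = 0.738). Cblb, a ubiquitin ligase, was at 399.9, 459.97 and 382 in STING KO, against 462, 437 and 468 in control (-0.14, SE 0.08, limma adjusted p = 0.738). For both genes the groups overlapped. Without STING KO replicate 3 the log2 fold change of Ptpn11 was -0.06 and that of Cblb was -0.09; that of Cblb was -0.22 without STING KO replicate 2. Usp18, which blocks the type I interferon receptor and is itself interferon-induced, was at 26.7, 28.9 and 19.1 in STING KO, against 32.9, 13.97 and 41.7 in control, and was named after its values were seen.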

How the data were processed

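Poly(A) RNA was sequenced in 3 STING KO and 3 control samples, grouped by their titles. The labels do not say whether replicates were separate cultures, and p-values thus reflect sample-to-sample spread that may be technical. The deposited table holds a signal per gene and sample: gene counts that the authors divided by a size factor, called normalized count here. The scaling was read from the values, of which 100% above 0 were whole multiples, within 0.01, of a step of 0.990 to 1.00 per column. Per the file headers, the authors' log2 fold change, its standard error and Wald score stand beside it, with the p-value and its adjusted form. Per the submitters' processing notes, the tools were DESeq2 1.4.5, RSEM 1.2.12, HISAT2 2.0.4 and Bowtie2 2.2.5, and the builds mm10 and GRCm38. The sources used here give neither annotation nor strand setting.

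The first row of each of 27507 identifiers was kept (314 repeats dropped). log2(normalized count + 0.1) was tested by limma 3.58.1 (R 4.3.3; trend on, no covariate) for 12408 genes with at least 10 in at least 3 samples; this scale can understate changes of low genes. The fit was tested on simulated data. The members, pathway lists and alternatives were chosen with earlier results of these data known. Named pathway genes are the called members of each list and its 2 smallest p. Usp18, Ifnb1, Osm, Ctf1, Il11, Il6ra, Lifr, Il11ra1 and the markers are exceptions, named after their values were seen. A further gene and list are not reported here. Coordinates and lengths are from GENCODE M21 (GRCm38).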

Additional observations from a re-analysis of the deposited data

How the results depend on the processing

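The alternatives were TMM and upper-quartile scaling, a pseudocount of 1, no filter, a minimum mean of 5 CPM, limma-voom, the authors' deposited test, a replicate block, leaving out each library, and dropping both libraries that hold hepatocyte transcripts. edgeR and DESeq2 on recovered reads were planned and not run. No member was called under any alternative run, and of 149 member values 140 kept their sign. The log2 fold change of Socs2 was -0.0062 without both libraries with hepatocyte transcripts, where that of Cish was 0.0426, and that of Pias3 was 0.0068 with upper-quartile scaling. Leaving out 1 library gave -0.147 to 0.0288 for Socs5, -0.205 to 0.107 for Cish and -0.0362 to 0.0198 for Pias3; the cause was not tested. Cish fell under the minimum of 5 CPM. The 32 genes called, all lower, became 21 to 35 without 1 library (21 to 35 lower and 0 to 2 higher, the lowest without control replicate 1) and 12 without both libraries with hepatocyte transcripts, and the authors' test has 6 higher. With the replicate block 18 were called, all lower and all among the 32, and Socs3 was at an adjusted p of 0.959. Deviations of same-numbered samples from their group means correlated at -0.18, -0.18 and -0.49. These values do not settle whether such samples were prepared together, as large differences between single libraries also enter them. Cish, with about 33 counts per library, is the member whose precision depth limits most.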
